A study of Homo sapiens with 6 samples.

Results

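The genes described here are 38 members of glycolysis and of the hypoxia response, followed in MCF10A, a human line of mammary epithelial cells that does not form tumours. The members were given as a list of gene symbols, and 36 of them had at least 1 array probe set annotated to that gene alone, out of 19775 genes read in this way. SLC16A3, the lactate exporter MCT4, and CA9, a carbonic anhydrase of the cell surface, had none and were not analysed here. The study set 3 arrays of MCF10A cells with C/EBPbeta-2, a protein isoform that the transcription factor gene CEBPB gives, against 3 arrays of MCF10A cells with no such addition, called control. All 6 cultures shared a medium with horse serum, insulin, hydrocortisone, epidermal growth factor and cholera toxin, and no treatment is named for any of them. The means of adding C/EBPbeta-2, whether the control cells carried an empty vector, and what set the biological replicates apart are not stated in the labels, so p-values measure only the spread between these samples.

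Glycolysis turns glucose into pyruvate. Cells import glucose through SLC2A carriers, trap it with hexokinases, commit it at phosphofructokinase and, when lactate dehydrogenase reduces pyruvate, regain the NAD+ that the pathway needs. Low oxygen strengthens this route through HIF1A, the regulated subunit of hypoxia-inducible factor: prolyl hydroxylases of the EGLN family mark HIF1A for destruction when oxygen is present, and HIF that escapes them binds short hypoxia response elements beside genes for glycolytic enzymes, angiogenic factors and regulators of pH. HIF1A is therefore controlled mainly at the protein level, which these arrays do not read.

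The mRNA of these genes did not pass the test between cells with C/EBPbeta-2 and control cells. Limma, adjusted over all 19775 genes, called 0 of the 36 at an adjusted p under 0.05, against 54 of all genes (0.273%), of which 18 rose (0.091%) and 36 fell (0.182%). At an unadjusted p under 0.05 there were 3 of the 36 (8.33%), against 1023 of all genes (5.17%), and all 3 read higher with C/EBPbeta-2, as did 499 of all genes (2.52%): NDRG1, P4HA1 and SLC2A3. The median log2 difference (C/EBPbeta-2 minus control) was 0.09 over the 36 and 0.01 over all genes. Of the 36, 25 were above 0 and 11 below, against 10259 above and 9516 below of all 19775 genes. The 22 genes of glucose and pyruvate metabolism had a median of 0.01 and a range of -0.49 to 0.64, and the 14 other hypoxia genes a median of 0.20 and a range of -0.21 to 1.13, a contrast that was not tested. For 25 of the 36 (69.4%, against 71.9% of all genes) the 95% interval of the difference, taken gene by gene, lay within 2-fold either way. The arrays measure RNA per amount of total RNA from whole cultures, so fewer cells that express a gene and less of its RNA per cell cannot be told apart.

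**Figure D1:**
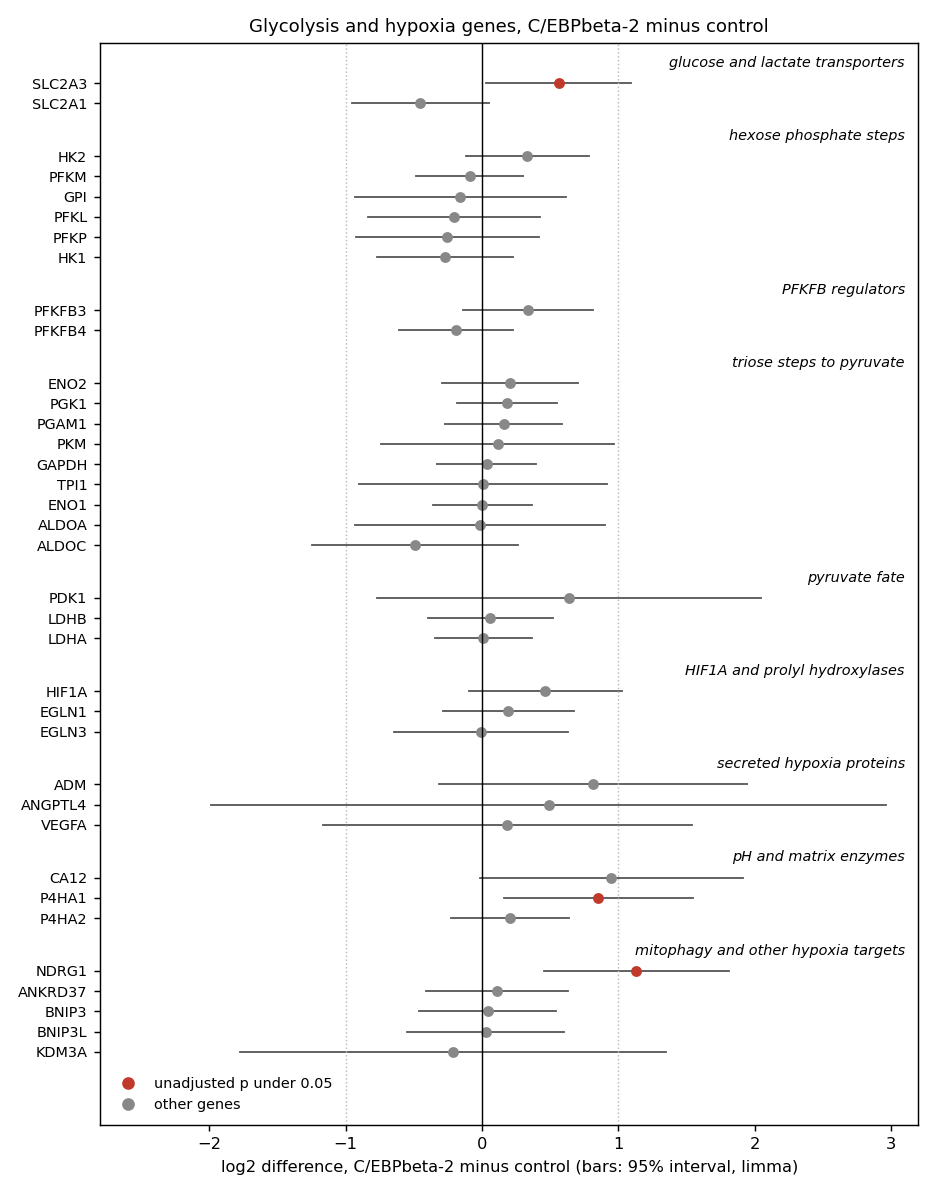
Log2 difference (C/EBPbeta-2 minus control) of the 36 measured genes, grouped by role; points are limma estimates from 3 arrays a group, bars their 95% intervals, and dotted lines a 2-fold change. NDRG1, P4HA1 and SLC2A3, in red, are the 3 at an unadjusted p under 0.05, and the bars of LDHA, ENO1 and GAPDH lie close to 0.

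Of 10 markers of mammary epithelial cells 7 were measured, and all 7 read above every array median (4.46 to 4.56) on all 6 arrays. KRT5, a basal keratin, read 12.38 to 12.69 (log2 intensity) with C/EBPbeta-2 and 12.44 to 12.93 in control cells, and the epithelial adhesion protein EPCAM 8.39 to 9.34 and 8.46 to 9.38. CDH3, the basal P-cadherin, read 8.46 to 9.37 with C/EBPbeta-2 and 9.15 to 10.51 in control cells (difference -0.96, limma unadjusted p = 0.0548, adjusted p = 0.996). Of the 7, limma called only the basal keratin KRT14, which fell to 9.72, 11.04 and 10.24 with C/EBPbeta-2, against 13.12, 13.32 and 13.57 in control cells (log2 difference -3.00, limma adjusted p = 0.030). Among 8 markers of leukocytes, fibroblasts and endothelial cells 0 were called by limma, and 1 had an unadjusted p under 0.05. This was CD14, a monocyte receptor, which read 6.85 to 7.28 with C/EBPbeta-2 and 5.98 to 6.45 in control cells (difference 0.92, adjusted p = 0.266), and its part in the values below was not tested. The leukocyte marker PTPRC (3.11 to 3.63 with C/EBPbeta-2, 3.11 to 3.48 in control cells) and the endothelial CDH5 (2.64 to 2.74 and 2.73 to 2.78) lay below every array median. COL1A1, a fibroblast collagen (6.58 to 6.91 and 6.77 to 6.90), and PECAM1, an endothelial adhesion protein (5.23 to 5.37 and 5.29 to 5.87), lay above every array median. CD3E of T cells (4.22 to 4.85 and 4.20 to 4.78), the collagen COL1A2 (3.98 to 5.11 and 3.97 to 4.18) and the receptor PDGFRB of fibroblasts (3.78 to 4.79 and 3.40 to 4.23) lay near or below the medians. CEBPB itself read 10.29, 10.50 and 11.38 with C/EBPbeta-2, against 11.27, 11.38 and 11.37 in control cells (difference -0.62, SE 0.30, adjusted p = 1.00). The location of its probes was not looked up, and an added sequence outside them would go unread, so CEBPB does not check the labels.

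A further difference between arrays touches many of the values below. The poly-A spike-in RNA that marks the start of labelling had a mean log2 intensity of 3.85 on the second C/EBPbeta-2 array and of 3.98 on the first control array. The other 4 arrays lay between 7.21 and 8.25, and the same pair had the largest excess of 3' over 5' signal for ACTB (1.32 and 1.48, against -0.04 to 0.64). For GAPDH the excess of 3' over 5' signal was 0.22 and 0.12 on this pair, against 0.21 to 0.32 on the others, so it was not raised there. The 18S ribosomal RNA control read 5.62 and 8.05 on the pair, against 10.09 to 12.19. Each group holds 1 array of the pair, called low spike-in here, and 2 high spike-in ones. Differences between groups are therefore also given within each level.

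Promoters of 6 members are shown so that the letters of a hypoxia response element stand beside the measured difference: CA12, P4HA1 and ADM, with differences of 0.95, 0.85 and 0.81, LDHA, with 0.01, and SLC2A1 and ALDOC, with -0.45 and -0.49. Each is the 250 bases before the most upstream annotated start in RefSeq (GRCh38.p14), read 5' to 3' on the gene's strand. Capitals mark the core letters ACGTG or GCGTG on either strand, where CACGTG counts on both.
CA12: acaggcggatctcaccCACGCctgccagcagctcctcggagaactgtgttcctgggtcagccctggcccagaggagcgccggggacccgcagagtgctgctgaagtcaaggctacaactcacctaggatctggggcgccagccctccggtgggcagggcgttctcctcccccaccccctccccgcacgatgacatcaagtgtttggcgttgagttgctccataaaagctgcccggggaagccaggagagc
P4HA1: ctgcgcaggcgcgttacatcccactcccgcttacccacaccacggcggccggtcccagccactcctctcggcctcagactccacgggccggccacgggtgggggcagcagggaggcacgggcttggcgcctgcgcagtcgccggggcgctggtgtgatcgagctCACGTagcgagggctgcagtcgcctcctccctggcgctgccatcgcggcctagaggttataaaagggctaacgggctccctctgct
ADM: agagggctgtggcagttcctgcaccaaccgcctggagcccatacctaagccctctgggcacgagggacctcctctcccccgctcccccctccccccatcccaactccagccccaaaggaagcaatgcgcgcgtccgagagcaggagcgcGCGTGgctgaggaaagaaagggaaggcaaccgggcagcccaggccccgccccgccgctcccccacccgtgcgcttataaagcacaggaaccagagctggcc
LDHA: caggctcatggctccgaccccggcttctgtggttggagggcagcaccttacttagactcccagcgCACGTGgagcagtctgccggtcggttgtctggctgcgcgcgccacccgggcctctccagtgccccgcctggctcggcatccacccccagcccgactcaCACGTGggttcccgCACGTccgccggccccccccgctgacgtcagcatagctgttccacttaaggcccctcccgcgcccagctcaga
SLC2A1: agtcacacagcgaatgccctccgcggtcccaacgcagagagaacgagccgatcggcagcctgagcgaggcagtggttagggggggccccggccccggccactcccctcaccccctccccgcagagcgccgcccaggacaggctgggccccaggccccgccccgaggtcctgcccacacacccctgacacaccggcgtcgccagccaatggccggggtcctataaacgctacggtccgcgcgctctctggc
ALDOC: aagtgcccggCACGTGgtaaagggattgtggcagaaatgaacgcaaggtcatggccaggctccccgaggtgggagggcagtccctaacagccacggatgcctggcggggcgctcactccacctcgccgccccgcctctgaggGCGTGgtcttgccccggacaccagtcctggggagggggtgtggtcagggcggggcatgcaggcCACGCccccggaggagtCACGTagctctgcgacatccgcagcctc
These windows are at chr15:63381847-63382096, minus strand for CA12, chr10:73096867-73097116, minus strand for P4HA1, chr11:10304823-10305072, plus strand for ADM, chr11:18394313-18394562, plus strand for LDHA, chr1:42958869-42959118, minus strand for SLC2A1 and chr17:28576896-28577145, minus strand for ALDOC. The CA12 window holds 1 core, 234 bases before the start, that of P4HA1 1 at 86 bases and that of ADM 1 at 101 bases. LDHA, with a difference of 0.01 (95% interval -0.35 to 0.36), holds 5 matches in 3 places, the nearest 73 bases before the start. The SLC2A1 window holds none of these letters. ALDOC, which had the lowest difference of the 36, also holds 5 matches, the nearest 28 bases before the start. BNIP3, with a difference of 0.04, holds 6 matches. Sequence outside these 250 bases was not searched, and a link between cores and differences was not tested. Of the 36 measured members 32 had a promoter in the table, and where a gene had several starts the most upstream was used. Of these 32, 21 (65.6%) held a core, against 7811 of 15384 promoters of all genes read here (50.8%). The C/EBP motif TTGCNNAA lay in 1 of the 32, that of EGLN3, against 1114 of 15384 (7.24%). A match of letters is not a bound site. NDRG1, BNIP3L, SLC2A3 and VEGFA are not in the table.

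The 2 measured glucose carriers among the members read in opposite directions. SLC2A1, the basal carrier GLUT1 (probe set 201250_s_at), read 7.54, 7.60 and 7.18 (log2 intensity) with C/EBPbeta-2, against 8.17, 7.65 and 7.86 in control cells. All 3 values with C/EBPbeta-2 lay below all 3 control values, the nearest pair 7.60 and 7.65, and the difference was -0.45 (SE 0.21, 95% interval -0.96 to 0.05, adjusted p = 1.00). SLC2A3, the high-affinity carrier GLUT3 (202497_x_at), read 5.09, 4.48 and 4.49 with C/EBPbeta-2, against 3.97, 4.30 and 4.11 in control cells. Its groups did not overlap either, with C/EBPbeta-2 higher by 0.56 (SE 0.22, unadjusted p = 0.0414, adjusted p = 0.901). The control values of SLC2A3 lay below every array median, and this probe set shares probes with related transcripts, such as those of the near-identical gene SLC2A14, so both the level and the gene are uncertain. The 2 carriers were 2 of 4 members whose groups did not overlap (11.1%, against 1706 of all genes, 8.63%). SLC2A3, PGK1 and NDRG1 read higher, as did 914 of all genes (4.62%), and SLC2A1 read lower, as did 792 (4.01%).

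The 6 genes that handle hexose phosphates all had 95% intervals within 2-fold. HK2, the inducible hexokinase (202934_at), read 7.99, 7.98 and 7.81 with C/EBPbeta-2, against 7.31, 7.66 and 7.82 in control cells. The lowest value with C/EBPbeta-2 and the highest control value met, and the difference was 0.33 (SE 0.19, adjusted p = 1.00). All 3 probe sets of HK2 read higher with C/EBPbeta-2, by 0.30 to 0.44, where the 0.44 came from a probe set below every array median. HK1, the constitutive hexokinase, differed by -0.27 and GPI, which converts glucose 6-phosphate to fructose 6-phosphate, by -0.16. The phosphofructokinase subunits PFKL, PFKM and PFKP differed by -0.21, -0.09 and -0.25, all with intervals within 2-fold, so 5 of these 6 genes read lower and 1 higher, with 0 called and 0 at an unadjusted p under 0.05.

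Both PFKFB enzymes among the members set the level of fructose 2,6-bisphosphate, the activator of phosphofructokinase. PFKFB3, the form with the strongest kinase activity (202464_s_at), read 6.76, 7.31 and 7.08 with C/EBPbeta-2, against 6.71, 6.87 and 6.57 in control cells. 1 C/EBPbeta-2 value lay among the control values, and the difference was 0.34 (SE 0.20, adjusted p = 1.00). PFKFB4 differed by -0.19 and at its other probe set by -0.36.

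Among the enzymes from fructose bisphosphate to pyruvate, 0 of 9 were called and 0 were at an unadjusted p under 0.05. GAPDH, which oxidises glyceraldehyde 3-phosphate and is often used as a constant reference gene, differed by 0.04 (SE 0.15), and the manufacturer's 3 GAPDH control probe sets, kept out of the test, gave 0.02 (5'), 0.03 (middle) and 0.07 (3'). ENO1, the ubiquitous enolase, differed by 0.00 (95% interval -0.36 to 0.37), PGAM1, phosphoglycerate mutase, by 0.16, and PGK1, phosphoglycerate kinase, by 0.18. The 4 probe sets of ENO1 ran from -0.35 to 0.07, with 2 above 0 and 2 below. Among them 217294_s_at, with means of 11.95 with C/EBPbeta-2 and 12.07 in control cells, gave -0.12 without overlap. PGK1 read 12.30, 12.24 and 12.11 with C/EBPbeta-2 and 12.01, 11.99 and 12.10 in control cells, groups that only just did not overlap. ALDOA, the main aldolase, differed by -0.02, TPI1, triose phosphate isomerase, by 0.01 and PKM, pyruvate kinase, by 0.11. Their SEs of 0.39, 0.38 and 0.36 stood against 0.15 for GAPDH. ALDOC, another aldolase (202022_at), had the lowest difference of the 36: it read 6.82, 6.32 and 7.08 with C/EBPbeta-2, against 6.71, 7.73 and 7.24 in control cells. These values overlapped, with a difference of -0.49 (SE 0.32, adjusted p = 1.00). The neuronal enolase ENO2 (0.20) read below every array median in both groups.

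At the fate of pyruvate both lactate dehydrogenase subunits had 95% intervals within 2-fold, and limma called 0 of 3 genes, with 0 at an unadjusted p under 0.05. LDHA, the subunit that favours lactate formation (200650_s_at), read 13.31, 13.38 and 13.24 with C/EBPbeta-2, against 13.32, 13.29 and 13.29 in control cells. The 2 groups lay on top of each other, with a difference of 0.01 and a 95% interval of -0.35 to 0.36. LDHB, the other subunit, differed by 0.06. PDK1, a kinase that shuts pyruvate dehydrogenase (226452_at), read 6.70, 8.21 and 8.28 with C/EBPbeta-2, against 7.17, 6.11 and 8.0 in control cells. Each group held values far apart, and the difference of 0.64 (SE 0.59, adjusted p = 1.00) was smaller than the SDs of 0.89 and 0.95 within the groups (n = 3 each). The other probe sets of PDK1, 206686_at and 239798_at, differed by only 0.09 and 0.15.

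**Figure D2:**
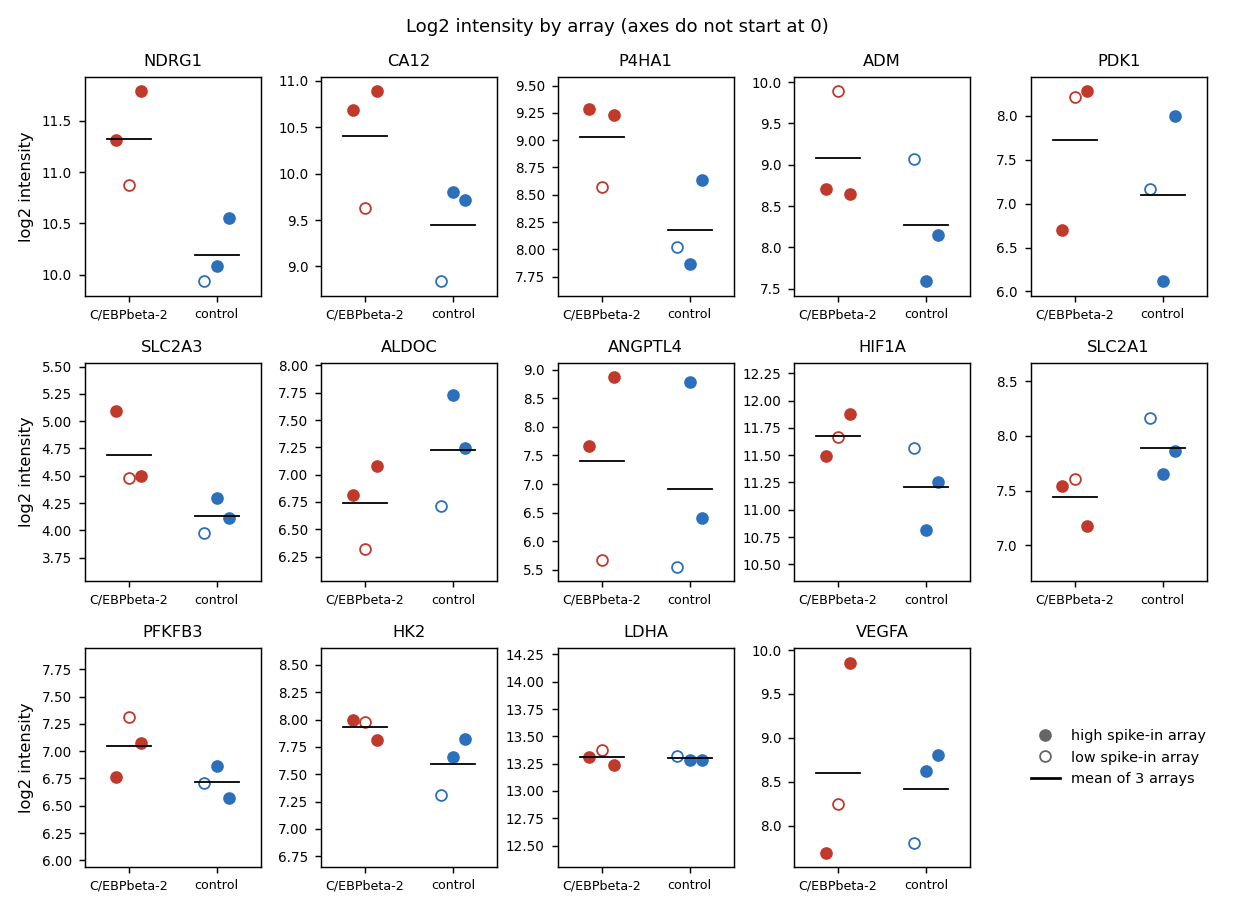
Log2 intensity on each array for the 12 genes with the largest size of difference and for LDHA and VEGFA, with C/EBPbeta-2 on the left (red) and control on the right (blue) of each panel; bars are means of 3 arrays and open points the low spike-in array of each group. The 3 points of NDRG1, SLC2A3 and SLC2A1 do not overlap between groups, while those of LDHA coincide and those of ANGPTL4 spread over 3.21 log2 units within C/EBPbeta-2 and 3.24 within control.

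Of HIF1A and 2 of its hydroxylases 0 were called and 0 were at an unadjusted p under 0.05. HIF1A (200989_at) read 11.49, 11.66 and 11.88 with C/EBPbeta-2, against 11.56, 10.82 and 11.25 in control cells. The low spike-in control array lay among the C/EBPbeta-2 values and the other control arrays below them, and the difference was 0.47 (SE 0.24, 95% interval -0.10 to 1.03, adjusted p = 1.00). EGLN1, the main prolyl hydroxylase of HIF1A, differed by 0.19 and EGLN3, a hypoxia-induced hydroxylase read close to the array medians, by -0.01.

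Of the secreted proteins of the hypoxia response 0 of 3 were called and 0 were at an unadjusted p under 0.05. Their median range over the 6 arrays was 2.30 log2 units, against 0.85 for all 36. ADM, the vasodilator peptide adrenomedullin (202912_at), read 8.71, 9.89 and 8.65 with C/EBPbeta-2, against 9.07, 7.59 and 8.15 in control cells. The highest value of each group came from its low spike-in array. The difference was 0.81 (SE 0.48, adjusted p = 1.00) over all arrays, 0.82 within the low spike-in arrays and 0.81 within the high ones. ANGPTL4, an inhibitor of lipoprotein lipase (221009_s_at), read 7.67, 5.66 and 8.87 with C/EBPbeta-2, against 5.55, 8.79 and 6.40 in control cells. That is a span of 3.21 within C/EBPbeta-2 and 3.24 within control, beside a difference between groups of 0.49 (SE 1.04), which lay between -0.25 and 1.43 with any 1 array left out. VEGFA, the angiogenic growth factor (210512_s_at), read 7.69, 8.24 and 9.86 with C/EBPbeta-2, against 7.81, 8.63 and 8.80 in control cells. The groups overlapped (difference 0.19, SE 0.57), and the 4 probe sets of VEGFA ran from -0.50 to 0.19, with 1 above 0.

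The largest differences among these genes lay in enzymes of pH and matrix, with 0 of 3 called and 1 at an unadjusted p under 0.05, and in NDRG1. CA12, a transmembrane carbonic anhydrase that handles acid at the cell surface (215867_x_at), read 10.68, 9.63 and 10.89 with C/EBPbeta-2, against 8.84, 9.80 and 9.71 in control cells. Its low spike-in arrays were the lowest of each group, and only the C/EBPbeta-2 one reached into the control range. The difference was 0.95 (SE 0.41, unadjusted p = 0.0526, adjusted p = 0.983), or 1.93-fold in intensity. All 7 probe sets of CA12 read higher with C/EBPbeta-2, by 0.24 to 1.27, and 2 of them had an unadjusted p under 0.05. Of these, 204508_s_at read 8.96, 7.92 and 9.24 with C/EBPbeta-2, against 6.93, 7.53 and 7.83 in control cells, without overlap (difference 1.27, SE 0.40, adjusted p = 0.873 over all probe sets).

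P4HA1, a catalytic subunit of the prolyl 4-hydroxylase that stabilises collagen (207543_s_at), read 9.29, 8.57 and 9.23 with C/EBPbeta-2, against 8.02, 7.87 and 8.64 in control cells. The lowest C/EBPbeta-2 value, 8.57, lay below the highest control value, 8.64, and the other values did not cross. C/EBPbeta-2 was higher by 0.85 (SE 0.29, unadjusted p = 0.0228, adjusted p = 0.719). Its other probe set, 243335_at, read 2.36 to 2.87 over the arrays, below every array median, and gave -0.01. P4HA2, the other such subunit, differed by 0.21.

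NDRG1, a cytoplasmic protein induced by hypoxia, differentiation and other stress, had the largest difference of the 36, at its only probe set (200632_s_at). It read 11.31, 10.88 and 11.78 with C/EBPbeta-2, against 9.94, 10.09 and 10.55 in control cells. All 3 values with C/EBPbeta-2 lay above all 3 control values, the nearest pair 10.88 and 10.55, and the difference was 1.13 (SE 0.29, 95% interval 0.45 to 1.81), or 2.19-fold in intensity. Its unadjusted p was 0.00568 and its adjusted p 0.357, the lowest of the 36. Leaving out any 1 array kept the difference between 0.90 and 1.35. The mitophagy receptors BNIP3 and BNIP3L differed by 0.04 and 0.03, ANKRD37, an ankyrin-repeat HIF target, by 0.11, and KDM3A, a histone H3 lysine demethylase, by -0.21 (SE 0.66). So NDRG1 was the only 1 of these 5 targets with an unadjusted p under 0.05.

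Of 25 genes with over 1 probe set, 15 had all of them on the same side of 0, among them CA12, HK2, SLC2A3, PDK1 and SLC2A1. For HK2, SLC2A3 and SLC2A1 these include probe sets that read below every array median on all 6 arrays. The same share was not taken over all genes. Of the 83 probe sets of the members limma called 0 when adjusted over all 54613 probe sets (0.0659% of which were called), and 5 (6.02%, against 3.98% of all) had an unadjusted p under 0.05. These 5 belonged to CA12, NDRG1, P4HA1 and SLC2A3.

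**Figure D3:**
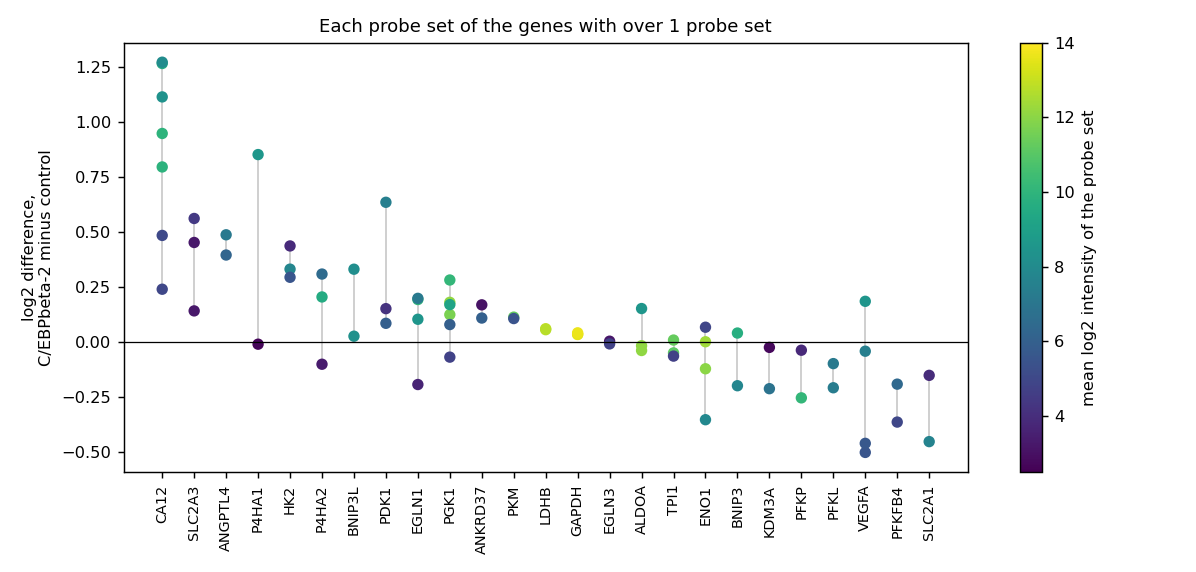
Log2 difference (C/EBPbeta-2 minus control, vertical axis) of every probe set of the 25 genes with over 1 probe set; colour is the mean log2 intensity of the probe set over both groups, and lines join probe sets of a gene. The 7 probe sets of CA12 all lie above 0 and the 4 of VEGFA run from -0.50 to 0.19; for P4HA1 a probe set near 0 is a dim one.

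Within each spike-in level, 5 of the 36 (13.9%) differed by over 0.5 in the same direction, against 1104 of all genes (5.58%), and all 5 read higher with C/EBPbeta-2, as did 560 of all genes (2.83%). They were NDRG1 (0.94 at the low level, 1.23 at the high level), CA12 (0.79 and 1.03), ADM (0.82 and 0.81), P4HA1 (0.55 and 1.01) and SLC2A3 (0.51 and 0.59). In contrast HIF1A differed by 0.10 at the low level and 0.65 at the high one, and PDK1 by 1.04 and 0.43. SLC2A1 (-0.56 at the low level, -0.40 at the high level) and ALDOC (-0.39 and -0.54) read lower at both levels. Each exceeded 0.5 in size at 1 level only. The cut of 0.5 was set after seeing the data, so the count and its direction depend on that choice. The low level holds 1 array a group, so its value has no replicate. With the spike-in level as a term in the fit, 7 of the 36 (19.4%) had an unadjusted p under 0.05, against 1326 of all genes (6.71%), and 0 were called. The 7 were those 5 with SLC2A1 and ALDOC, which read lower. CA12 then had an SE of 0.17 and an adjusted p of 0.114, NDRG1 an SE of 0.22 and an adjusted p of 0.160, and ADM an SE of 0.20 and an adjusted p of 0.285. Over all fits tried the adjusted p of CA12 ran from 0.114 to 1.00, that of NDRG1 from 0.138 to 0.875 and that of ADM from 0.285 to 1.00. With any 1 array left out, the difference of CA12 lay between 0.64 and 1.33 and that of ADM between 0.41 and 1.21. The spike-in term leaves each difference as it was because of the balanced design, which holds 1 low spike-in array in each group.

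**Figure D4:**
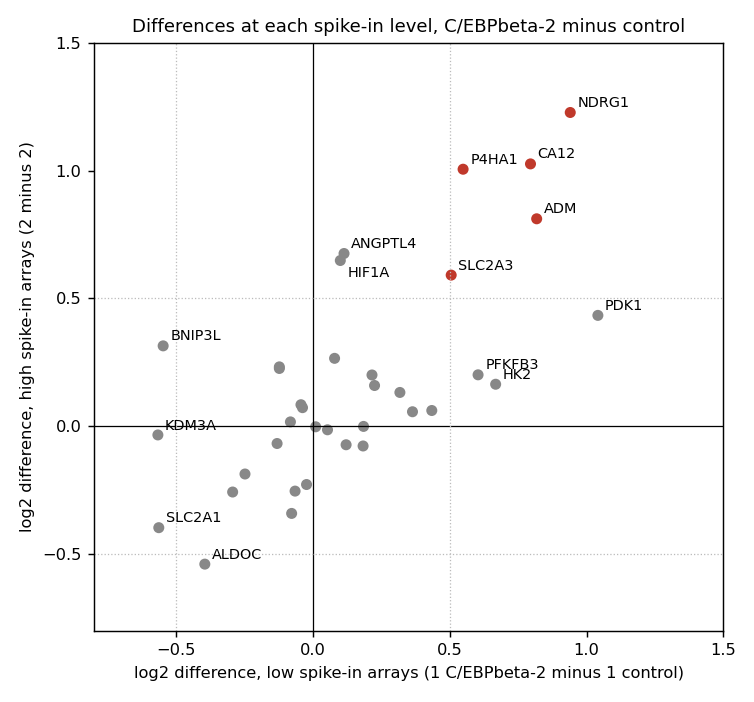
Log2 difference (C/EBPbeta-2 minus control) of each gene within the low spike-in arrays (horizontal, 1 array a group) and within the high ones (vertical, 2 a group); dotted lines mark 0.5. NDRG1, CA12, ADM, P4HA1 and SLC2A3, in red, lie above 0.5 on both axes.

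Several glycolytic genes differed more between the arrays of a group than between the groups. In 11 of the 36 (30.6%) the low spike-in array differed from the mean of the high ones by over 0.5 in the same direction in both groups. Of these 11, 9 (25.0% of the 36, against 1344 of all genes, 6.8%) read lower on the low spike-in arrays and 2 (5.56%, against 1822, 9.21%) higher. ALDOA was 1.03 lower within C/EBPbeta-2 and 0.93 lower within control, TPI1 0.84 and 1.10 lower, PKM 1.04 and 0.69 lower, and ANGPTL4 2.61 and 2.05 lower. GPI, PFKL, ALDOC, VEGFA and CA12 were the other 5, while ADM was 1.21 and 1.20 higher there and KDM3A 0.89 and 1.42 higher. LDHA moved by 0.10 and 0.04, and ENO1 by -0.09 and -0.10. The part of spike-in level, RNA quality or culture state in this spread was not tested.

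**Figure D5:**
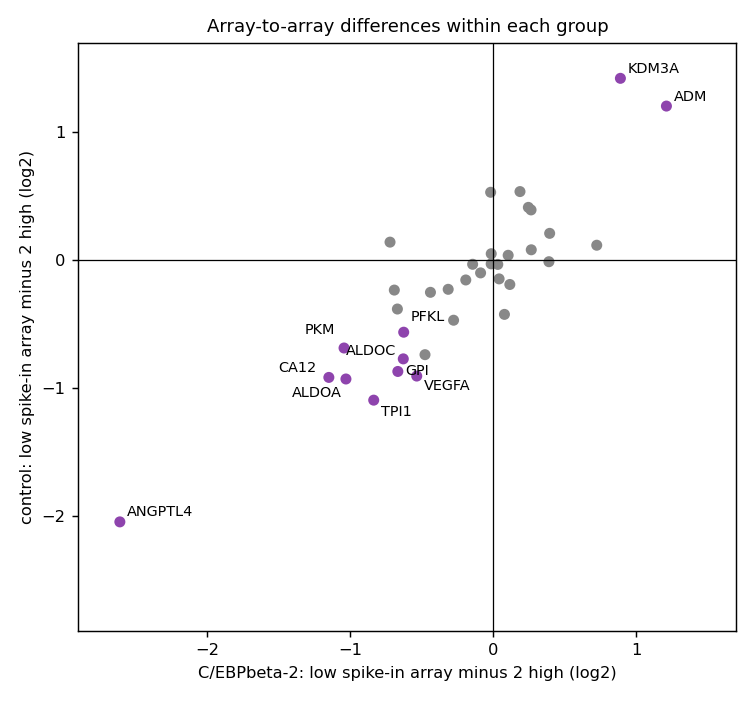
Low spike-in array minus the mean of the 2 high spike-in arrays (log2), within C/EBPbeta-2 (horizontal) and within control (vertical), for each gene. The 11 genes in purple differ by over 0.5 in the same direction in both groups, with ANGPTL4 lowest and ADM and KDM3A highest.

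Neighbouring pathways were read from 7 lists of 113 further genes, of which 102 were measured. Limma called 0 of them, with 7 (6.86%, against 5.17% of all genes) at an unadjusted p under 0.05, and their median difference was -0.01. Among 12 other components of the HIF pathway 0 were called, with 1 at an unadjusted p under 0.05. That gene, EPAS1, which encodes the alternative subunit HIF-2alpha (200878_at), read 11.38, 11.22 and 11.27 with C/EBPbeta-2, against 10.50, 10.56 and 10.16 in control cells. All its values with C/EBPbeta-2 lay above all control values, and its difference of 0.88 (SE 0.18, adjusted p = 0.197) had the lowest adjusted p of these 102. CITED2, which competes with HIF for its coactivators, differed by 1.18 (-0.04 at the low and 1.79 at the high spike-in level) and ARNT, the partner subunit of HIF, by -0.67.

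Other hypoxia-inducible genes had a median of -0.10 over 28 measured. Limma called 0, and 1, the mitochondrial protein gene FAM162A (-0.45), was at an unadjusted p under 0.05. LOX, which crosslinks collagen, differed by 1.37 (SE 0.73; -0.18 at the low and 2.15 at the high spike-in level), STC1, the hormone stanniocalcin, by 1.24 (SE 0.545) and the factor ZNF395 by -0.95 (SE 0.45).

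Further glycolytic isozymes and regulators had 0 of 13 called by limma and 1 at an unadjusted p under 0.05, TIGAR. TIGAR, a fructose 2,6-bisphosphatase, differed by 0.84 (adjusted p = 0.729), BPGM, the bisphosphoglycerate mutase, by 0.68 and PFKFB2 by 0.48. Among 12 other carriers 0 were called and 1, SLC16A7, was at an unadjusted p under 0.05. SLC16A7, the monocarboxylate carrier MCT2, read 4.03, 5.76 and 5.17 with C/EBPbeta-2, against 7.98, 5.66 and 8.47 in control cells. That was the largest difference of the 102 (-2.38, SE 0.78, adjusted p = 0.671), with 1 control array, replicate 2, inside the C/EBPbeta-2 range. SLC2A9 differed by -0.38 and BSG, the chaperone of monocarboxylate carriers, by -0.38.

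For the pyruvate dehydrogenase complex and its regulators, 0 of 9 were called and 1, PDK3, was at an unadjusted p under 0.05. The kinases PDK4 and PDK3 differed by -0.94 (SE 1.02) and -0.76 (SE 0.25, adjusted p = 0.671), and the subunit DLD by -0.21. In pentose phosphate, glycogen and gluconeogenesis 0 of 15 were called and 2, PC and GBE1, were at an unadjusted p under 0.05, with PYGB, a glycogen phosphorylase, at -1.09, PC, pyruvate carboxylase, at -1.05 and GBE1, the glycogen branching enzyme, at -0.76. Of 13 measured enzymes of the tricarboxylic acid cycle 0 were called and 0 were at an unadjusted p under 0.05. Of these 13, 11 read lower and 2 higher, with a median of -0.16 and with OGDH at -0.36, SUCLA2 at -0.25 and SDHD at -0.21.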

How the data were processed

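The series holds 1 value per probe set and array for 6 arrays. Per the submitters' processing notes the authors used RMA, with no version given. As deposited, the intensities are linear (4.17 to 17825, array medians 22.0 to 23.6), by a step the labels do not state. Here log2 was taken with no pseudocount, with no new normalization and no detection calls, and the number of arrays limits the precision.

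Of 54675 probe sets, 62 control probe sets were set aside. The annotation gave 1 gene symbol for 41091 of the other 54613, several for 1801 and none for 11721. For each of 19775 genes the probe set of highest mean over the 6 arrays was taken. C/EBPbeta-2 minus control was fitted over all 19775 with limma 3.58.1 (lmFit, eBayes) in R 4.3.3, two-sided, with no covariate and Benjamini-Hochberg adjustment over all genes, and intervals are limma's own. The fit was also run on simulated data with planted differences and independent noise, which does not test the spike-in pattern of these arrays. Python 3.11.15 with pandas 2.3.3 wrote the tables and matplotlib 3.10.9 drew the plots.

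The members, the lists and the tests were chosen with earlier results of these data known. Every member is named. Of each of the 7 other lists the 3 genes with the largest size of difference are named, and FAM162A was added after its value was seen. Values on every array are given for the 12 members with the largest differences and for LDHA and VEGFA, and those of PGK1, EPAS1, SLC16A7 and CA12's further probe set were added after they were seen. The cut of 0.5 was also set after seeing the data. Alternatives left out arrays or changed covariates, normalization, filter, pseudocount, variance or probe set choice.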

Additional observations from a re-analysis of the deposited data

How the results depend on the processing

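In the main fit and in 19 other fits, 16 planned and 3 added after seeing the data, limma called 0 of the glycolysis and hypoxia genes, and the lowest adjusted p of any of them in any fit was 0.114 (CA12, with the spike-in term). Of the 36, 19 kept their sign in every fit that held them and 17 did not. The replicate block, the spike-in term and the fits that changed only the variance leave each difference as it was, so they could not change a sign. The probe set filters dropped some members, NDRG1 among them. P4HA1 gave -0.01 without probe sets ending in _x_at or _s_at, where its dim probe set is read. The median difference of 0.09 ranged from 0.04 to 0.15 when 1 array was left out, and was 0.09 within the low and 0.08 within the high spike-in arrays.

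Counts moved more. Genes called over the whole array were 54, and 8 to 75 when 1 array was left out (15, 20 and 10 without C/EBPbeta-2 replicate 1, 2 and 3, and 9, 75 and 8 without control replicate 1, 2 and 3), 15 with 16 added before log2 and 214 with array weights. Added after seeing the data, the 4 arrays of high spike-in signal gave 16 and a term for the ACTB 3' minus 5' value 154. Members at an unadjusted p under 0.05 were 3, and 1 to 4 when 1 array was left out (1 without C/EBPbeta-2 replicate 1), 7 with the spike-in term, 8 with array weights, 6 with the ACTB term and 1 without _x_at and _s_at probe sets, a filter that keeps 21 of the 36. The count over all 19775 genes moved too: 1023 in the main fit, 1326 with the spike-in term, 1886 with array weights and 1534 with the ACTB term. It was 786 to 1361 when 1 array was left out, and 803 of 17098 genes without _x_at and _s_at probe sets. Members whose groups did not overlap were 4, and 7 to 10 when 1 array was left out, 13 with the 4 high spike-in arrays and 1 without _x_at and _s_at probe sets. Fewer arrays overlap less by construction, and outside the main fit the share over all genes was not taken for this count. Leaving out dim probe sets removed SLC2A3 and ENO2.

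The replicate number as a block gave 0 genes called by limma, with 763 at an unadjusted p under 0.05. Whether the numbers pair the samples is not known. Deviations of same-numbered arrays from their group means correlated at -0.52, -0.60 and 0.34 for replicates 1, 2 and 3, and only the arrays of replicate 3 correlated best with their own number. The 2 low spike-in arrays, C/EBPbeta-2 replicate 2 and control replicate 1, correlated at 0.66. Spike-in level thus crosses the numbers 1 and 2, so these correlations cannot decide on pairing.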
